A study of Sus scrofa with 64 samples.

Results

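The genes described here encode the subunits of the proteasome, its regulators and its assembly chaperones. They were taken as every probe whose platform gene symbol begins with PSM, a letter from A to G and a digit, which gave 46 of 23935 probes and 40 genes. By role, these were 7 alpha genes of the 20S core (PSMA1 to PSMA7), 4 structural beta genes (PSMB1 to PSMB4), 3 constitutive catalytic beta genes (PSMB5, PSMB6 and PSMB7), 2 immunoproteasome genes (PSMB8 and PSMB10), 5 ATPase genes (PSMC) and 12 non-ATPase genes (PSMD) of the 19S particle, 4 activator genes (PSME1 to PSME4), the inhibitor PSMF1 and the assembly chaperones PSMG1 and PSMG3. PSMD5 and PSMD10, which also act in assembly and are not kept in the finished particle, are counted by their symbol with the non-ATPase genes. The first 3 groups and the 19S genes, 31 genes with 36 probes, are called the constitutive 26S genes below. PSMB9, the remaining immunoproteasome gene, had no probe under this symbol and was not analysed here.

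Messenger RNA of 4 pigs and 16 tissues was hybridised to 64 porcine arrays of Affymetrix, so that an array stood for 1 tissue of 1 animal. The pigs were a Large White male of 38.8 kg and female of 36.2 kg, both 87 days old, and an Iberian male of 25.4 kg and female of 32.8 kg, both 89 days old. The tissues were 5 brain structures (hypothalamus, olfactory bulb, both lobes of the pituitary, called adenohypophysis and neurohypophysis, and the pineal gland), adrenal cortex and medulla, thyroid gland, diaphragm and Biceps femoris muscle, back and abdominal fat, stomach, liver, ileum and blood. No animal received a treatment that the labels name, and each combination of breed and sex was 1 pig. Cortex and medulla of the adrenal gland were parted mechanically, so that material of one may lie in the sample of the other. Of 52 tissue marker genes with a probe, 47 had their highest mean level in the tissue they mark. The pineal gland array of the Large White male, the Biceps femoris array of the Iberian female and the stomach array of the Iberian female stood apart from the other arrays of their tissue, and calls of named genes that were lost without them are marked where they are given.

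The 26S proteasome degrades proteins tagged with ubiquitin. Its 20S core is a barrel in which rings of alpha subunits enclose rings of beta subunits, and PSMB5, PSMB6 and PSMB7 carry the active sites. The 19S particle caps the barrel, where non-ATPase subunits bind and deubiquitinate substrates and ATPase subunits unfold them. In cells of the immune system, and in other cells exposed to interferon, PSMB8, PSMB9 and PSMB10 take the places of PSMB5, PSMB6 and PSMB7 and form the immunoproteasome, whose cleavage pattern favours peptides for MHC class I. PSME1 and PSME2 together form PA28 alpha beta, an activator that binds the core and is also induced by interferon. In the RefSeq table of the pig assembly Sscrofa11.1, PSMB8 lies between TAP2 and TAP1, the genes of the peptide transporter, with PSMB9 beyond TAP1, and PSME1 and PSME2 lie on either side of EMC9.

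Levels are log2 values as deposited, in the order Large White male, Large White female, Iberian male and Iberian female where 4 values are given. A level was compared only with other levels of the same probe. Tissue differences are log2 differences between the named tissue or tissue group and the mean of all other tissues, with the standard error (SE). A probe was called higher or lower at an adjusted p under 0.05 in limma, adjusted over all 23935 probes. Where a gene had several probes, the one with the highest mean level stands for it.

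All 46 proteasome probes lay above the median level of all probes and all 46 differed between tissues in the overall test, with adjusted p of 3.74e-05 or less, where the test called 98.2% of all probes. Tissue differences of the constitutive genes were of moderate size. The standard deviation of the 16 tissue means had a median of 0.44 over the 36 constitutive probes, 0.48 over all probes and 0.59 over all probes above the median level. PSMB8, with 1.03, PSMD5, with 1.06, and PSME4, with 0.95, varied most among the 40 genes.

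**Figure D1:**
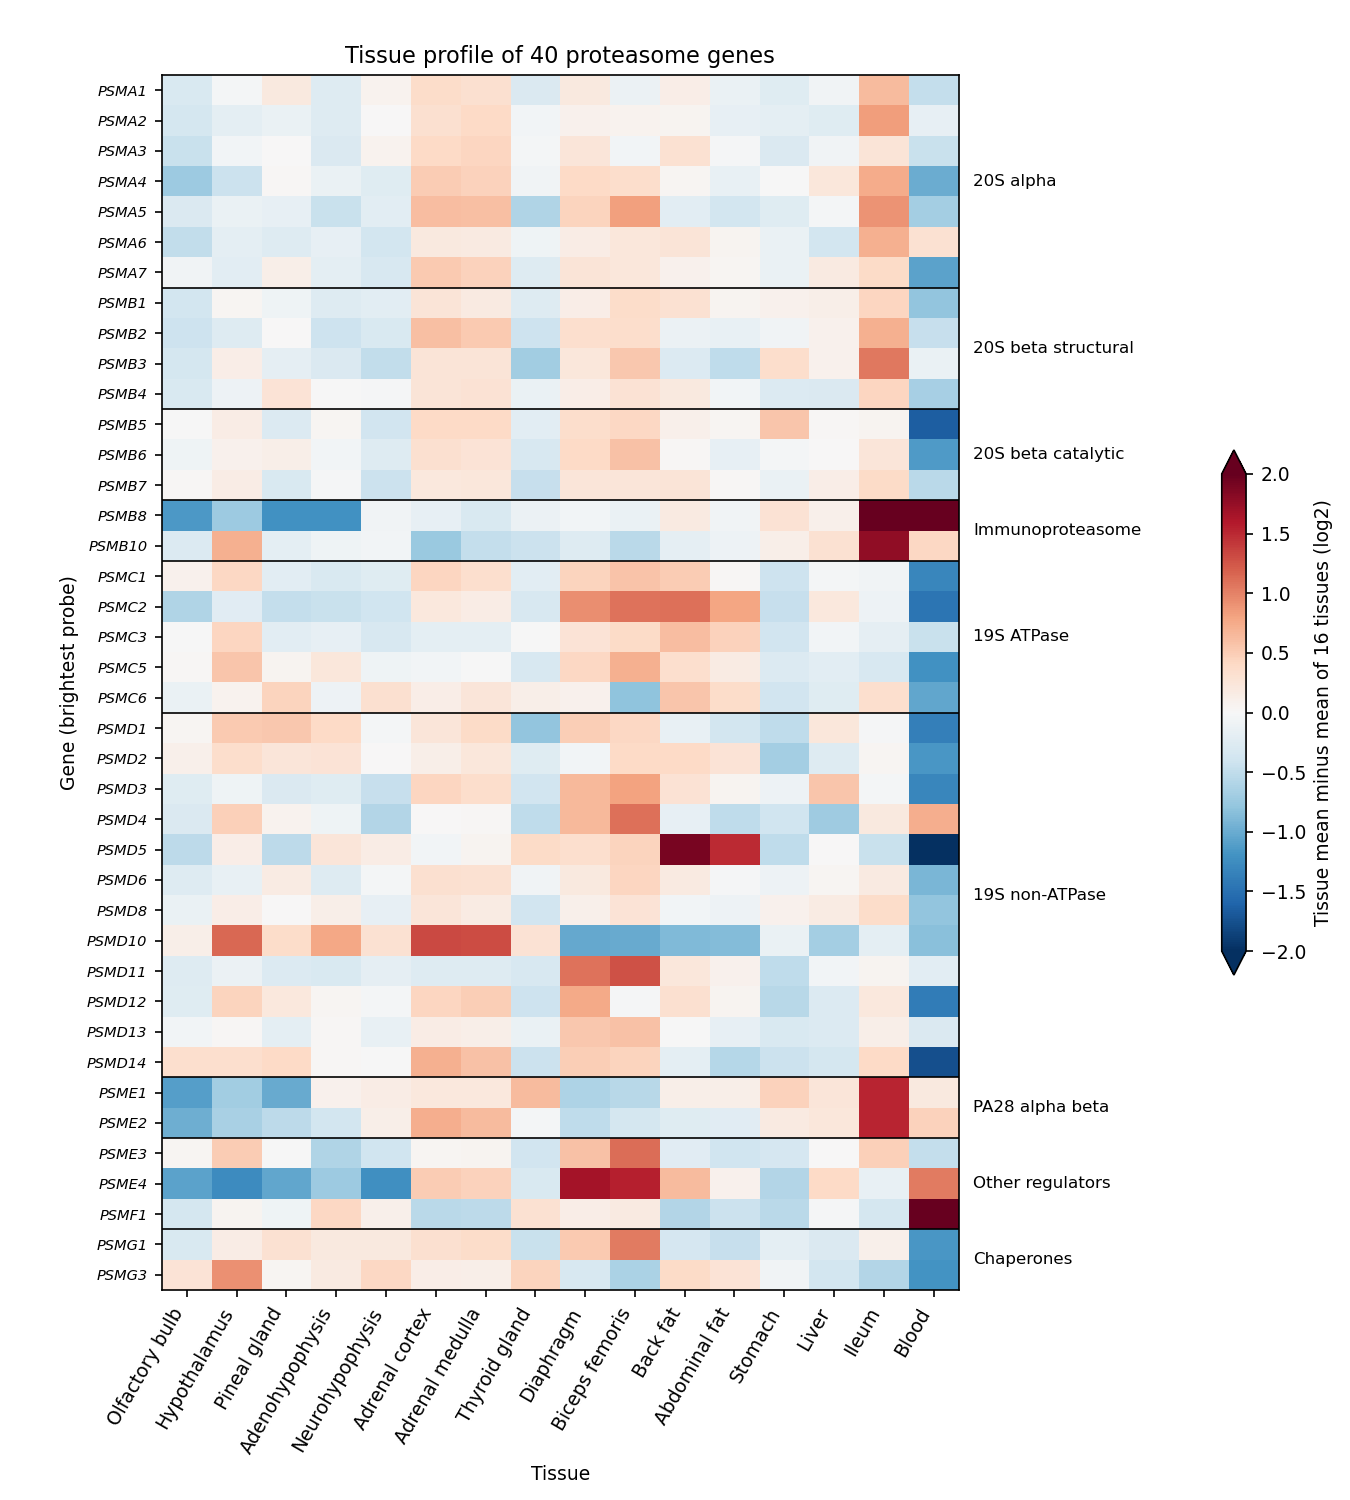
Mean log2 level of each of the 40 proteasome genes (rows, grouped by role) in each of 16 tissues (columns), as the difference from the gene's mean over the 16 tissues; each cell is the mean of 4 arrays of the brightest probe and the scale ends at −2 and 2. The constitutive genes are palest blue to red in most tissues and blue in blood, while PSMB8, PSMB10, PSME1 and PSME2 are red in ileum.

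Highest means of the constitutive genes were most often in ileum and Biceps femoris. Of the 31 genes, 11 had their highest mean in ileum, 9 in Biceps femoris, 4 in back fat and 3 in adrenal cortex. The rest peaked in other tissues. Ileum was the peak of 5 of 7 alpha genes and 4 of 4 structural beta genes, whereas Biceps femoris was the peak of 6 of 12 non-ATPase genes and back fat of 3 of 5 ATPase genes (PSMC2, PSMC3 and PSMC6). For PSMC2 this was the peak of its brightest probe, which had r = 0.56 and r = 0.49 with its other probes over the tissue means. The catalytic genes PSMB5, PSMB6 and PSMB7 peaked in stomach, Biceps femoris and ileum. For 28 of the 31 genes the arrays of the highest tissue overlapped those of the next, so that these peaks are an order of means. Blood was lowest for 5 of 5 ATPase genes, 8 of 12 non-ATPase genes, 4 of 7 alpha genes, 3 of 4 structural beta genes and 3 of 3 catalytic genes. No share of all probes is given beside these counts of highest and lowest tissues. Bright probes in general were low in blood. At a mean level of 8 or more, a limit set after seeing the data, 69.9% of all probes were lower there, with a median of −0.77.

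Skeletal muscle held high levels of most constitutive genes. Of 36 probes, 31 were higher in the 2 muscles than elsewhere and 2 were lower, where 35.4% of all probes were higher and 34.9% lower. The median log2 difference was 0.42 for the constitutive probes and 0.02 for all probes. Among the 2840 probes with a mean level of 8 or more, a limit set after seeing the data, 31.5% were higher and 50.1% lower in muscle, with a median of −0.20. The higher probes spanned the roles, with 14 of 15 non-ATPase, 6 of 7 ATPase, 4 of 7 alpha, 4 of 4 structural beta and 3 of 3 catalytic probes. PSMD11, a scaffold subunit of the 19S lid, was 1.34 ± 0.07 (SE) higher, a fold of 2.54. Its levels in Biceps femoris were 10.74, 10.72, 10.32 and 10.68. The 2 other probes of PSMD11 differed by 1.87 and 1.27. The ATPase PSMC2 was 1.16 ± 0.07 higher and PSMD4, a ubiquitin receptor of the cap, 1.001 ± 0.10 higher.

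The exceptions in muscle were PSMD10, at −1.17 ± 0.09, and PSMC6, at −0.41 ± 0.12. PSMD10, also called gankyrin, is a chaperone of 19S base assembly that is not part of the finished particle. PSMC6, an ATPase, had levels of 9.40, 9.56, 9.28 and 7.15 in Biceps femoris, where the array of the Iberian female lay far below the others. Without it the muscle difference of PSMC6 was −0.12 and was not called (adjusted p of 0.0905 in limma). That array was lower than the other 3 by more than 1 log2 unit for PSMD12, PSMC6, PSMA3 and PSMD14, and without it 1 constitutive probe, in place of 2, was lower in muscle. Among genes outside the proteasome, muscle had 3 of 3 probes of the muscle ubiquitin ligase list higher, where 35.4% of all probes were. These probes stood for 2 of 4 listed genes, the atrophy ligase FBXO32 (2.72) and MUL1 (0.40). MUL1 had larger differences in liver (0.98) and fat (0.61). Of 13 probes of the list of proteasome partners, 10 were higher in muscle (median 0.40).

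Between the muscles, few constitutive probes differed. In diaphragm against Biceps femoris 3 of 36 probes were higher and 3 lower, where 12.1% and 13.1% of all probes were, with a median of −0.11 against −0.09 for all probes. At a mean level of 8 or more, 26.5% of all probes were higher and 9.82% lower in diaphragm, with a median of 0.15. The activator gene PSME3 (−0.53 ± 0.17), the chaperone PSMG1 (−0.51 ± 0.11) and PSMD2 (−0.46 ± 0.13) were lower in diaphragm. PSMC6 (0.89 ± 0.22), PSMD12 (0.79 ± 0.30) and PSMA1 (0.31 ± 0.12) were higher in diaphragm, and these calls rested on 1 array. Without the Biceps femoris array of the Iberian female, PSMC6 differed by 0.32, PSMD12 by −0.02 and PSMA1 by 0.10, and 0 constitutive probes were called higher and 1 lower. The calls of PSME3 (−0.45) and PSMD2 (−0.31) were lost as well.

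The adrenal gland was the other tissue in which most constitutive genes were higher. There 28 of 36 probes were higher and 3 lower, where 24.7% and 32.2% of all probes were, with medians of 0.33 and −0.07. Among all probes with a mean level of 8 or more, 49% were higher in the adrenal gland, with a median of 0.19. All 7 alpha, all 4 structural beta and all 3 catalytic probes were higher. PSMD10 led with 1.50 ± 0.09, a fold of 2.83, followed by the deubiquitinase PSMD14 (0.75 ± 0.10) and PSMA5 (0.69 ± 0.07). PSMD10 had levels of 8.75, 9.05, 8.99 and 9.04 in adrenal cortex, its highest tissue. In diaphragm, its lowest tissue, they were 6.75, 6.81, 6.14 and 6.73. The inhibitor PSMF1 (−0.61 ± 0.09), PSMD11 (−0.29 ± 0.07) and PSMB10 (−0.69 ± 0.12) were lower.

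In ileum the difference was graded by role. Of 36 constitutive probes, 15 were higher and 4 lower, where 23.4% and 29.5% of all probes were, with medians of 0.20 and −0.09. At a mean level of 8 or more, 36.6% of all probes were higher and 28.4% lower in ileum, with a median of 0.08. The core carried the higher values: 6 of 7 alpha probes (median 0.76), 4 of 4 structural beta probes (median 0.61) and 2 of 3 catalytic probes (median 0.25) were higher. In the cap, 0 of 7 ATPase probes were higher and 3 lower (median −0.18), and 3 of 15 non-ATPase probes were higher and 1 lower (median 0.04). PSMB3, a structural beta subunit, had the largest value, 1.12 ± 0.13, a fold of 2.18. PSMA2 had levels of 11.23, 11.25, 11.08 and 10.95 in ileum and PSMA6 levels of 11.10, 11.06, 11.05 and 11.18, and for both genes all 4 ileum arrays lay above every other array of the series. Of 46 proteasome probes, 6 had this property in ileum, where 2.21% of all probes did, namely PSMB10, PSME1, PSME2, PSMA1, PSMA2 and PSMA6. PSMD5 (−0.48 ± 0.11), the chaperone PSMG3 (−0.62 ± 0.12) and PSMF1 (−0.38 ± 0.12) were lower in ileum.

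Against stomach, the other sampled part of the gut, ileum had 27 of 36 constitutive probes higher and 1 lower, where 17.3% and 18% of all probes were, with medians of 0.50 and −0.07. At a mean level of 8 or more, 23.9% of all probes were higher and 23% lower in ileum than in stomach, with a median of 0.04. All 7 alpha and all 4 structural beta probes were higher, led by PSMA5 (1.13 ± 0.14), together with 4 of 7 ATPase and 10 of 15 non-ATPase probes. The only lower constitutive probe was that of PSMB5 (−0.49 ± 0.11), and PSMG3 differed by −0.51 ± 0.17. The count of higher probes fell to 15 without the Large White male and to 14 without the Large White female.

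Stomach had low levels of the cap. Against all other tissues 2 of 36 constitutive probes were higher there and 21 lower, where 18.2% and 21.3% of all probes were, with medians of −0.29 and −0.03. At a mean level of 8 or more, 29.5% of all probes were higher and 22% lower in stomach, with a median of 0.03. All 7 ATPase probes were lower (median −0.44), as were 10 of 15 non-ATPase probes, including PSMD2 (−0.73 ± 0.09) and PSMD12 (−0.59 ± 0.22). The activator PSME4 was lower too (−0.63 ± 0.14). The higher probes were those of PSMB5 (0.59 ± 0.08) and PSMB3 (0.37 ± 0.13). Without the stomach array of the Iberian female PSMB3 differed by 0.20 and was no longer called. The number of lower probes was 12 without the Large White male and 12 without the Large White female.

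Blood had the lowest levels of constitutive genes. Of 36 probes, 31 were lower and 3 higher, where 35% of all probes were lower and 43.5% higher, and the median was −0.87 against 0.11 for all probes. The size of this difference depended on the distribution of the whole array. The 90th percentile of an array lay between 7.81 and 8.04 in blood and between 8.37 and 8.64 in the other tissues, and among all probes with a mean level of 8 or more 69.9% were lower in blood, with a median of −0.77. After quantile normalization, which gives every array one distribution, the constitutive median was −0.43, with 23 probes lower and 7 higher, and that of the probes at 8 or more was −0.23. The comparison of blood with other tissues was thus one of relative levels within an array.

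All 7 ATPase probes (median −1.28), 13 of 15 non-ATPase probes (median −0.89), all 3 catalytic probes (median −1.22), 3 of 4 structural beta probes (median −0.60) and 5 of 7 alpha probes (median −0.51) were lower in blood. PSMD5, a chaperone of 19S base assembly, had levels of 5.04, 4.99, 4.95 and 4.76 in blood. In back fat its levels were 9.91, 10.17, 9.78 and 9.85. The blood difference of PSMD5 was −3.31 ± 0.11, a fold of 9.89, and its 4 blood arrays lay below every other array. PSMD14 differed by −1.87 ± 0.14, and the chaperones PSMG1 and PSMG3 were lower (median −1.26). In all, 17 of 46 proteasome probes had all 4 blood arrays below every other array, 15 of them constitutive, where 5.03% of all probes did. The higher constitutive probes were those of PSMD4 (0.77 ± 0.14), PSMA6 (0.32 ± 0.08) and 1 of 3 of PSMD11 (0.38). The other PSMD11 probes differed by −0.23 and −0.80, so that the probes of this gene disagreed in blood. PSMD4 had levels of 7.76, 7.89, 8.89 and 7.49 in blood. Leaving out 1 animal at a time gave PSMD4 differences of 0.44 to 0.92.

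Of the 3 red cell markers, 2 were higher in blood and 1 was lower. AHSP was 8.40 ± 0.26 and ALAS2 7.50 ± 0.28 higher, while the globin gene HBB differed by −0.84 ± 0.24 and had its highest mean in olfactory bulb. Outside this list the ubiquitin conjugase UBE2O was 3.59 ± 0.10 higher. The mean level of the 3 red cell markers was 11.20 in blood and 7.55 in liver, the next tissue, where the array of the Iberian male stood at 8.80 and the other 3 between 6.91 and 7.37. The part of red cells and their precursors in the proteasome values of blood was not tested.

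In the remaining tissues the constitutive genes stood at or below the other tissues. In the brain structures 8 of 36 probes were higher and 20 lower, where 29.8% and 49.3% of all probes were, with medians of −0.13 and −0.12. These counts lay near those of all probes but not near those of bright probes. At a mean level of 8 or more, 41.3% of all probes were higher and 39.3% lower in brain, with a median of 0.02. All 7 alpha probes were lower (median −0.27). Of 15 non-ATPase probes 5 were higher and 7 lower (median −0.10), with PSMD10 (0.79 ± 0.06) and PSMD1 (0.42 ± 0.06) the highest. Of 7 ATPase probes 3 were higher and 1 lower, and 2 of the 3 were the dimmer probes of PSMC2, at 0.36 and 0.28, whose brightest probe was the lower one, at −0.62. In the thyroid gland 2 probes were higher and 22 lower, where 23.5% and 30% of all probes were, with medians of −0.29 and −0.09. At a mean level of 8 or more, 41.9% of all probes were higher and 16.6% lower there, with a median of 0.19. PSMD1 (−0.85 ± 0.11), PSMB3 (−0.74 ± 0.13) and PSMA5 (−0.65 ± 0.10) had the largest values in thyroid. PSMD5 was 0.41 ± 0.11 higher in thyroid. In liver 4 were higher and 9 lower, where 20.5% and 28.8% of all probes were, with medians of −0.02 and −0.05. At a mean level of 8 or more, 22.3% of all probes were higher and 44.3% lower in liver, with a median of −0.22. PSMD3 (0.59 ± 0.13) and PSMA4 (0.24 ± 0.08) were higher in liver, and PSMD4 (−0.76 ± 0.14), PSMD10 (−0.72 ± 0.12) and PSMA6 (−0.39 ± 0.08) lower. Without the Iberian male, 8 were higher and 5 lower in liver. On the liver array of this pig the median deviation of the constitutive probes was −0.30, against −0.037 to 0.17 on the other 3, and the red cell markers were highest, as given above. Their part in the liver values was not tested.

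Fat had 11 probes higher and 8 lower, where 22.8% and 33% of all probes were, with medians of 0.08 and −0.08. At a mean level of 8 or more, 40.9% of all probes were higher and 27.6% lower in fat, with a median of 0.09. Without blood among the other tissues the constitutive median was −0.02. PSMD5 led with 1.94 ± 0.08, a fold of 3.83. Its levels in abdominal fat were 9.69, 10.07, 9.03 and 9.31. The next tissue by mean was Biceps femoris, where its highest array was 8.85. Among the ATPase probes 5 of 7 were higher in fat (median 0.30), with PSMC2 at 1.09 ± 0.07, PSMC3 at 0.61 ± 0.09 and PSMC6 at 0.53 ± 0.12. The 2 dimmer probes of PSMC2 differed by 0.11 and −0.01 and were not called, so that the value of this gene in fat rested on 1 probe. PSMD10 (−0.9998 ± 0.09) and PSMF1 (−0.58 ± 0.09) were lower.

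**Figure D2:**
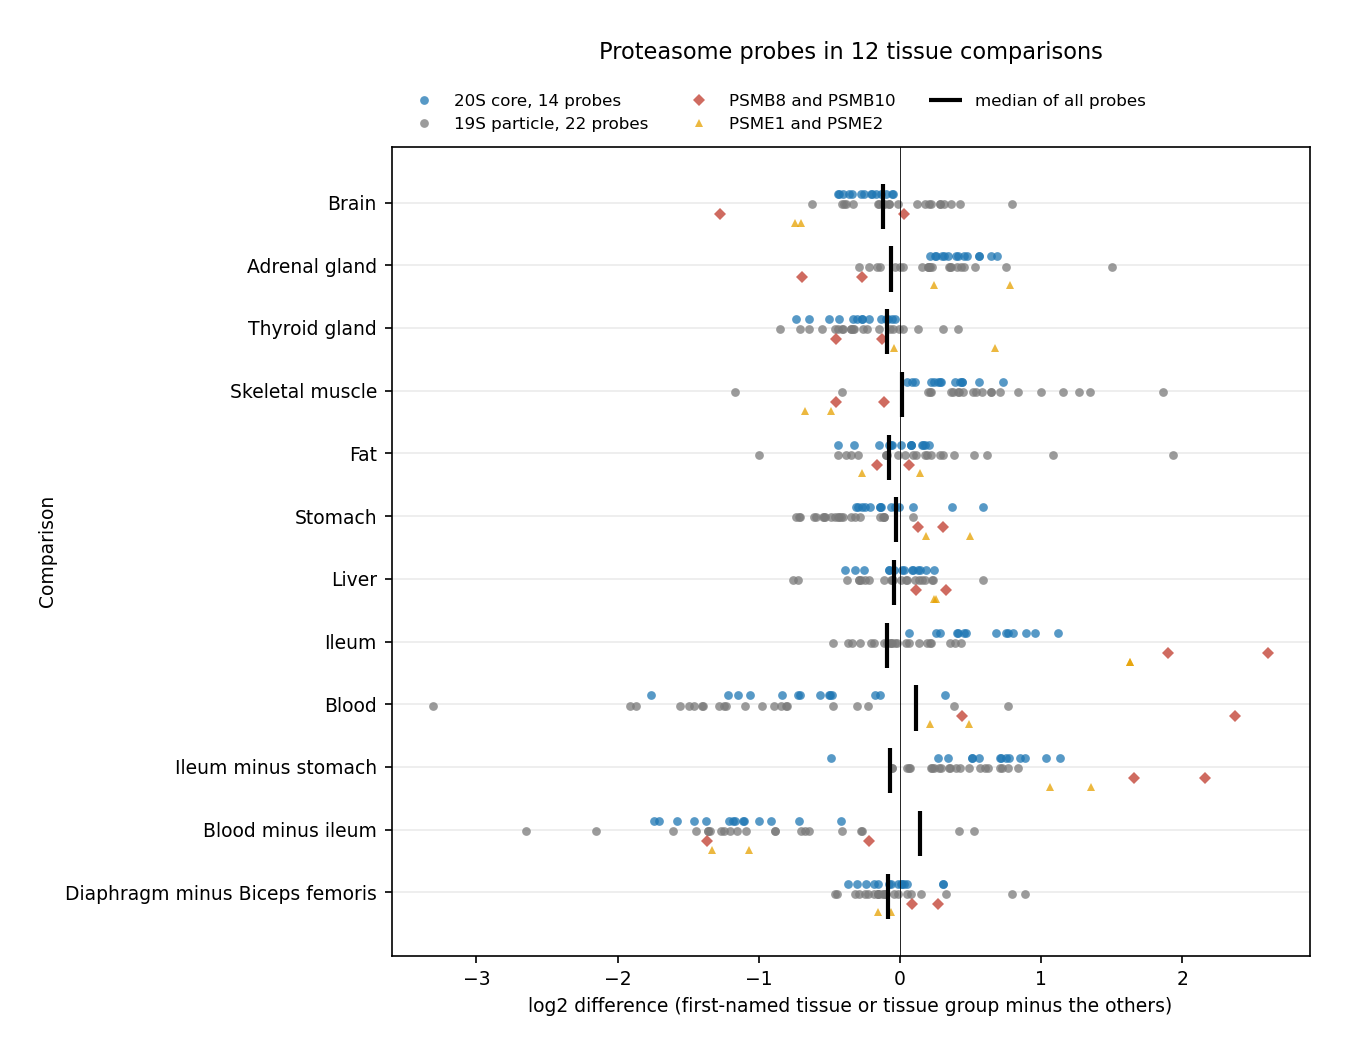
Log2 difference of each proteasome probe in 12 tissue comparisons (rows), with the 20S core in blue, the 19S particle in grey, PSMB8 and PSMB10 as red diamonds and PSME1 and PSME2 as yellow triangles; the black bar is the median of all probes of the array. The core lies right of the cap in ileum, most constitutive probes lie right of the bar in muscle and adrenal gland and left of it in blood, and the red diamonds lie far right in ileum.

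Among the catalytic genes of the constitutive core, PSMB5 and PSMB6 stood apart in blood and PSMB7 did not. PSMB5, with chymotrypsin-like activity, had levels of 7.56, 7.16, 7.34 and 7.38 in blood and of 9.66, 9.55, 9.41 and 9.62 in stomach, its highest tissue. PSMB6, with caspase-like activity, had levels of 8.13, 7.81, 8.31 and 8.03 in blood and of 9.62, 9.64, 9.78 and 10.12 in Biceps femoris. For both genes all blood arrays lay below every other array, and the blood differences were −1.76 ± 0.08 and −1.22 ± 0.07. PSMB7, with trypsin-like activity, had levels of 8.74, 8.74, 9.03 and 8.80 in blood, which overlapped those of the thyroid gland and neurohypophysis, and a blood difference of −0.57 ± 0.08. Its highest tissue was ileum, with levels of 9.64, 9.86, 9.68 and 9.78, which overlapped those of back fat. In the middle of the 3 orders neighbouring tissues did not differ beyond their spread.

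The immunoproteasome genes followed another order. PSMB8 had levels of 9.91, 9.42, 9.85 and 9.86 in ileum and of 9.53, 9.13, 9.79 and 9.70 in blood. These tissues overlapped each other. The stomach array of the Iberian female, at 9.12, lay just under the lowest blood array. PSMB8 was 2.60 ± 0.23 higher in ileum (fold 6.08, adjusted p of 4.6e-14 in limma) and 2.37 ± 0.23 higher in blood (fold 5.17, adjusted p of 3e-13), and blood and ileum differed by −0.22 ± 0.32, which was not called. The lowest mean was that of adenohypophysis, with levels of 5.75, 5.69, 6.62 and 6.34. In the brain structures PSMB8 was 1.27 on the log2 scale below the other tissues (−1.27 ± 0.12, fold 2.42).

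PSMB10 also peaked in ileum, but its blood arrays did not stand apart from those of other tissues. Its levels in ileum were 9.40, 8.69, 9.62 and 8.88, a difference of 1.89 ± 0.16 (fold 3.72, adjusted p of 1.1e-14). Hypothalamus came next, with levels of 7.87, 8.08, 8.51 and 7.85, and then blood, with 7.67, 7.53, 8.29 and 7.65, and these groups overlapped. The blood difference was 0.44 ± 0.16 (adjusted p of 0.012 in limma), and it missed the threshold without the Iberian male, at 0.32. After quantile normalization the PSMB10 log2 difference, blood, was 1.001. Within neither breed alone was it called. Blood against ileum gave −1.36 ± 0.22 for PSMB10. In the brain structures PSMB10 differed by 0.03 ± 0.08 and was not called. It was lower in adrenal gland (−0.69 ± 0.12), thyroid gland (−0.46 ± 0.16) and skeletal muscle (−0.45 ± 0.12), and the thyroid call was lost without the Iberian male, at −0.38.

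**Figure D3:**
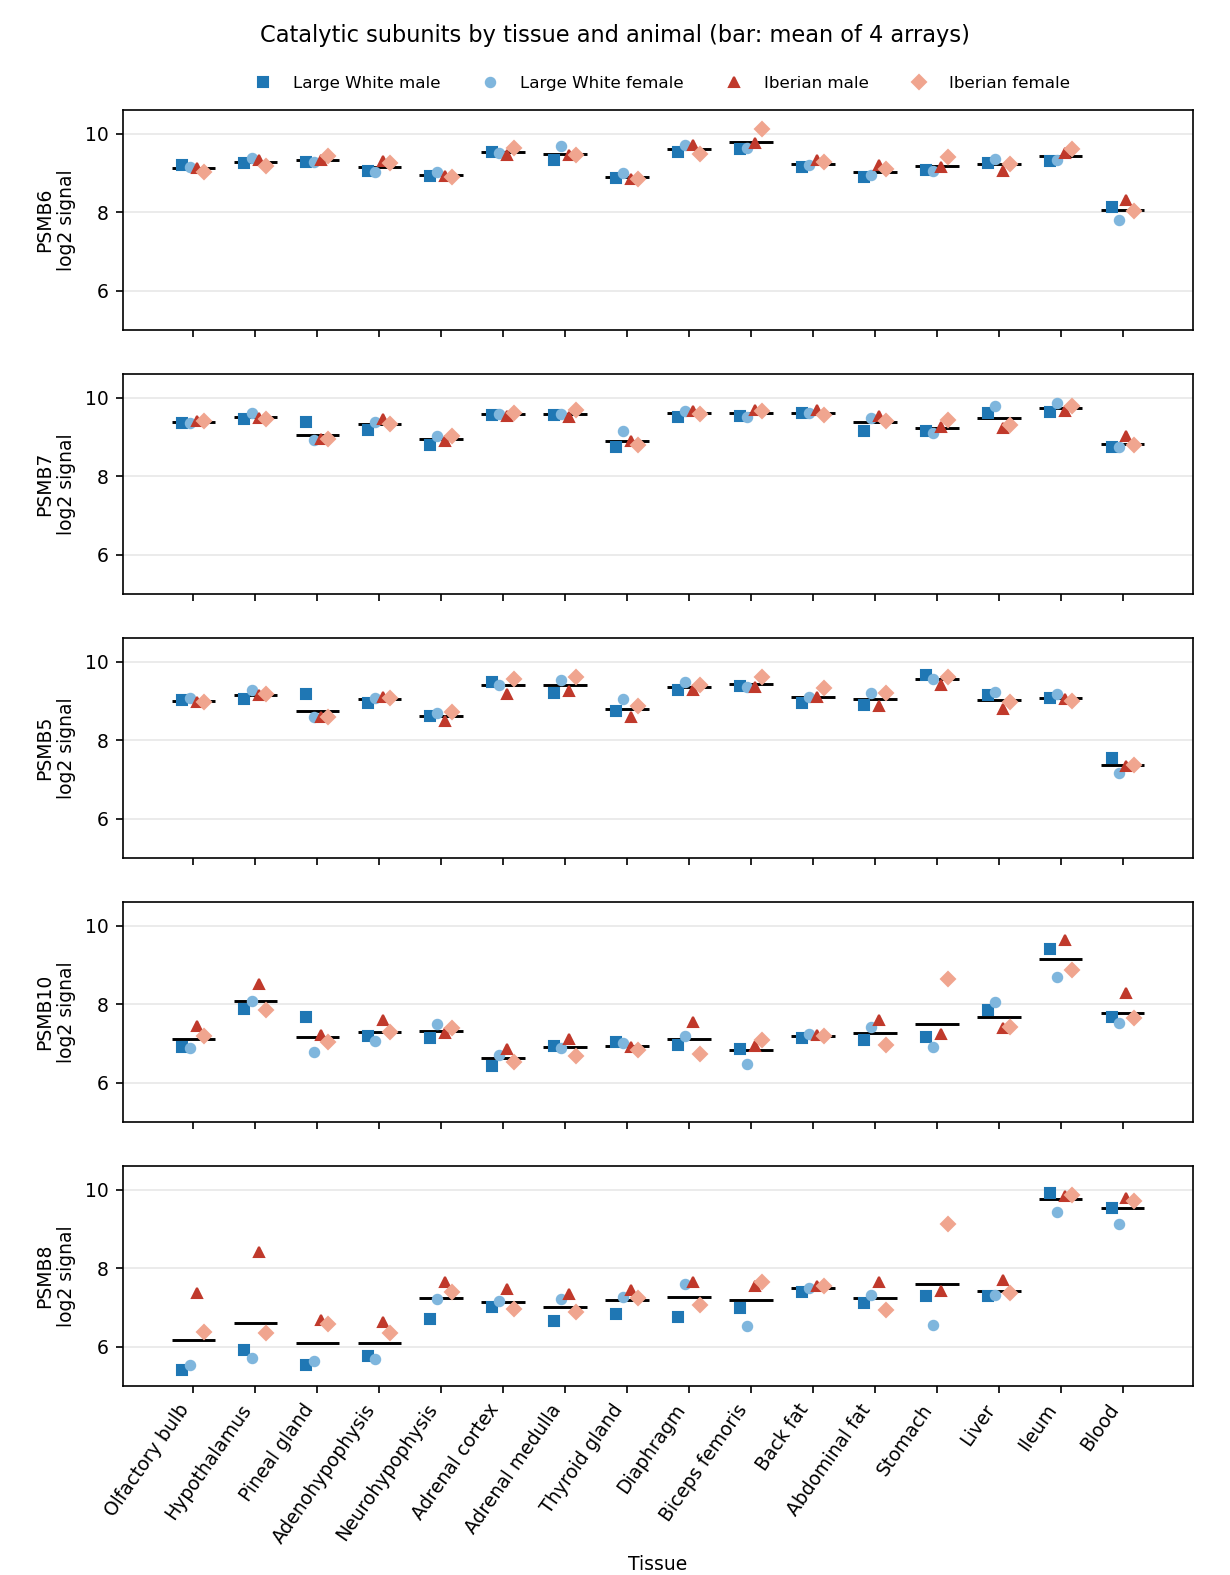
Log2 level of the 3 constitutive catalytic genes and the 2 immunoproteasome genes in each of 16 tissues, with 1 point for each of the 4 arrays and a bar for their mean; levels are comparable within a gene only. PSMB5 and PSMB6 are lowest in blood, while PSMB8 is highest in ileum and blood and PSMB10 in ileum.

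The balance of the exchangeable subunits was taken as the mean deviation of PSMB8 and PSMB10 from their 16-tissue means, minus that of PSMB5, PSMB6 and PSMB7, for each array. It was 2.43 ± 0.18 (SD, n = 4) in blood and 1.88 ± 0.35 in ileum, and no array of another tissue passed 1.25. Both parts entered the value in blood, where the immunoproteasome genes stood at 1.32 ± 0.29 above their mean and the catalytic genes below theirs. In ileum the immunoproteasome genes stood at 2.11 ± 0.31. Quantile normalization left the balance at 2.40 in blood and 1.87 in ileum. Neurohypophysis came next at 0.29 ± 0.22, and adrenal cortex (−0.77 ± 0.28) and Biceps femoris (−0.75 ± 0.29) stood lowest. In neurohypophysis the immunoproteasome genes stood at −0.06 and the catalytic genes at −0.36, so that its balance came from low catalytic genes. The largest spreads were in stomach (0.07 ± 0.82) and hypothalamus (−0.14 ± 0.76). Without the stomach array of the Iberian female the other 3 had a mean of −0.32 ± 0.29 (SD, n = 3), and without the hypothalamus array of the Iberian male the other 3 had a mean of −0.51 ± 0.19.

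Those spreads each came from 1 array. In stomach, PSMB8 had levels of 7.30, 6.56, 7.43 and 9.12, and the array of the Iberian female was also the highest for PSMB10 (8.65, others 6.91 to 7.25), PSME1 (9.87, others 8.88 to 9.20) and PSME2 (10.20, others 8.93 to 9.29). In hypothalamus, PSMB8 had levels of 5.92, 5.70, 8.40 and 6.36, and the array of the Iberian male was the highest for PSME1 (8.84, others 7.81 to 7.95) and PSME2 (9.56, others 8.10 to 8.43). The balance was 1.25 on the first array and 0.98 on the second. On the hypothalamus array the mean level of 20 interferon response genes was 8.39, against 6.06 to 6.27 on the other 3, and that of 22 leukocyte markers 6.43, against 5.61 to 5.70. On the stomach array the leukocyte markers stood at 6.47 and the other 3 reached at most 6.20. The part of either list in these arrays was not tested.

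Leukocyte and interferon response genes moved with the immunoproteasome genes across tissues. Of 37 leukocyte marker probes, 37 were higher in blood (median 2.88) and 32 in ileum (median 2.46), while 35 were lower and 0 higher in brain (median −0.75). The mean level of the 22 leukocyte genes ran from 4.92 in adenohypophysis to 8.21 in ileum and 8.50 in blood, and 16 of the genes were highest in blood and 6 in ileum. Of 31 interferon response probes, 30 were higher in blood (median 2.01) and 27 in ileum (median 1.06), and 24 were lower in brain (median −0.49). Of all probes, 43.5% were higher in blood, 23.4% were higher in ileum and 49.3% were lower in brain. Over the 16 tissue means the immunoproteasome score had r = 0.95 with the leukocyte markers and r = 0.94 with the interferon list, and r = −0.26 with the constitutive median. Without blood these were 0.97, 0.94 and 0.14, so that the sign of the last one turned with blood. These values are descriptions over tissues that share the same 4 animals, and ileum and blood lie far from the other points. In bulk tissue, fewer cells of a type and less RNA per cell cannot be told apart, and the part of leukocytes in the immunoproteasome values was not tested.

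**Figure D4:**
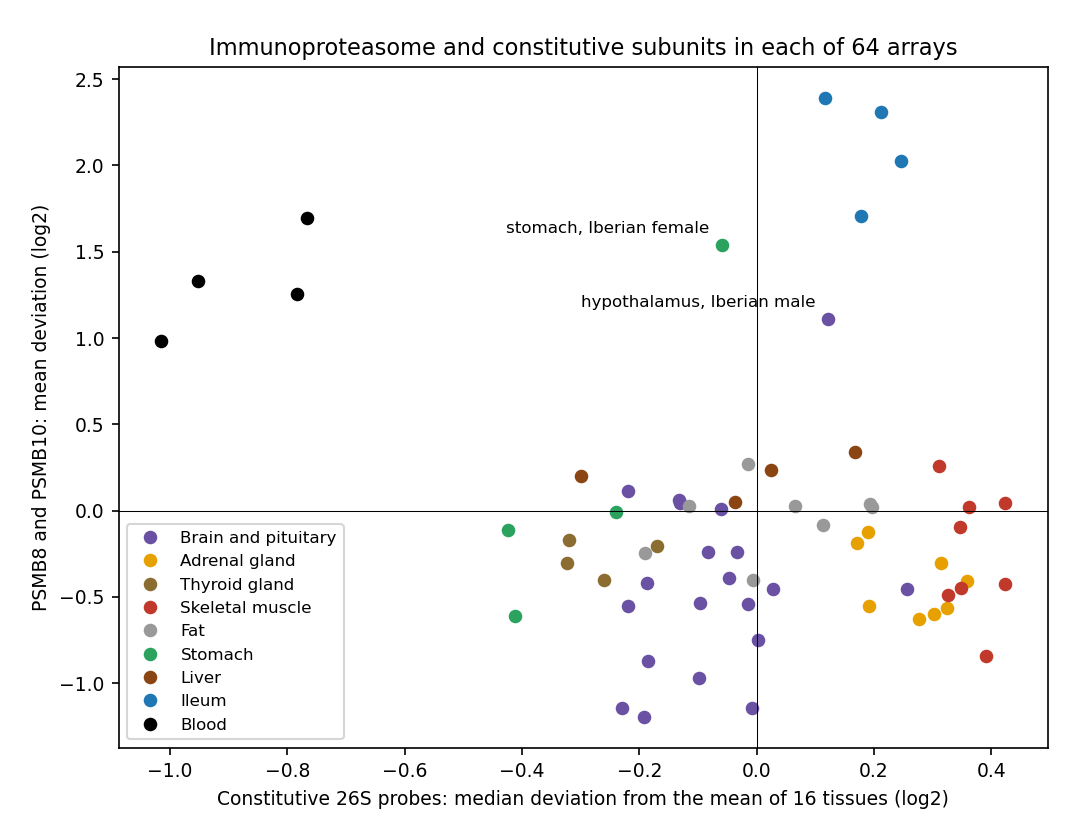
Each of the 64 arrays as 1 point, coloured by tissue group, with the median deviation of the constitutive 26S probes from their 16-tissue means on the x axis and the mean deviation of PSMB8 and PSMB10 on the y axis, both on the log2 scale. Blood lies at the upper left and ileum at the upper right, and the labelled stomach array of the Iberian female and hypothalamus array of the Iberian male lie above the other arrays of their tissue.

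Neighbouring and functionally linked genes gave the following values. TAP1, which lies next to PSMB8 and encodes a chain of the peptide transporter, was 2.54 higher in ileum, 1.49 higher in blood and 0.96 on the log2 scale below other tissues in brain (−0.96). Over the 16 tissue means PSMB8 had r = 0.95 with TAP1, r = 0.97 with the interferon regulatory factor gene IRF1 and r = 0.63 with PSMB10, and r = −0.43 with PSMB5, the subunit it replaces. Without blood the last value was 0.16, a change of sign. Among 6567 named genes the 10 whose means were most like those of PSMB8 and PSMB10 were CD86 (r = 0.96), IRF1, BTK, ARHGAP30, VAV1, SLA-DMB, PTPRCAP, GP91-PHOX, IL2RG and NCF4. None of these is a proteasome gene. Of 23 probes of the MHC class I peptide loading list, which holds the transporter and the molecules that receive its peptides, 11 were higher in ileum and 3 lower, with a median log2 difference of 0.14. In blood 11 were higher and 6 lower (median 0.17), and in brain 1 was higher and 18 were lower (median −0.32). The 39 probes of ubiquitin and of the E1 and E2 enzymes that activate and carry it moved both ways, with 18 higher and 11 lower in skeletal muscle (median 0.08), 16 and 10 in ileum (median 0.06) and 13 and 15 in blood (median 0.0065). Beside both lists, 35.4% of all probes were higher and 34.9% lower in skeletal muscle and 23.4% and 29.5% in ileum. In blood these shares were 43.5% and 35%, and in brain 29.8% and 49.3%.

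PSME1 and PSME2, the subunits of PA28 alpha beta, also peaked in ileum. PSME1 had levels of 10.28, 10.18, 10.59 and 10.24 there and PSME2 levels of 10.88, 10.57, 10.93 and 10.58, and in both genes every ileum array lay above every other array. Each was 1.63 higher in ileum, with SE of 0.14 and 0.15, a fold of 3.10. In blood PSME2 was 0.49 ± 0.15 higher and PSME1 differed by 0.21 ± 0.14, which was not called. Both were lower in the mean of the brain structures (−0.74 ± 0.07 and −0.70 ± 0.08) and in skeletal muscle (−0.67 ± 0.10 and −0.49 ± 0.11). Not every brain structure was low. PSME1 had means of 8.94 in neurohypophysis and 8.88 in adenohypophysis, against 8.79 over all arrays. PSME2 had means of 9.32 in neurohypophysis and 8.85 in adenohypophysis, against 9.21. PSME1 and PSME2 parted in the endocrine glands. PSME2 was 0.78 ± 0.11 higher in adrenal gland against 0.24 ± 0.10 for PSME1. In thyroid gland PSME1 was 0.67 ± 0.14 higher against −0.04 ± 0.15 for PSME2, a value that was not called. In stomach PSME1 was 0.50 ± 0.14 higher, and 0.29, with an adjusted p of 0.139 in limma, without the array of the Iberian female. Over the 16 tissue means PSME1 and PSME2 had r = 0.86.

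The other regulators had tissue orders of their own. PSME3, the nuclear activator PA28 gamma, was highest in Biceps femoris, with levels of 7.95, 8.11, 7.96 and 8.33, above every other array. Its muscle difference was 0.97 ± 0.09. Among all proteasome probes, PSME3 and the chaperone PSMG1 were the 2 with this property in Biceps femoris, where 0.781% of all probes had it. PSMG1, which acts in the assembly of the alpha ring, had levels of 8.40, 8.50, 8.38 and 8.98 there and a mean of 6.36 in blood. PSMG3, another chaperone of core assembly, was instead highest in hypothalamus, at 7.76, 7.96, 7.95 and 7.83. It differed by 0.53 ± 0.06 in brain, 0.47 ± 0.12 in thyroid and −0.54 ± 0.09 in muscle.

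PSME4, the activator PA200, had the widest range of the activators. Its levels were 7.90, 8.58, 8.02 and 8.97 in diaphragm and 8.36, 8.70, 8.17 and 7.78 in Biceps femoris, and the muscles overlapped each other. The mean was 5.44 in hypothalamus. PSME4 was 1.84 ± 0.10 higher in muscle (fold 3.57), 1.11 ± 0.14 higher in blood, 0.43 ± 0.14 higher in liver and 1.54 below other tissues in brain (−1.54 ± 0.07, fold 2.92). PSMF1, also called PI31, was first described as an inhibitor of the core. It had levels of 8.82, 9.26, 10.73 and 9.53 in blood, and the mean of the next tissue, adenohypophysis, was 7.73. The blood difference was 2.42 ± 0.12 (fold 5.34) for the brightest probe and 3.13 for the other, and these were the 2 proteasome probes with all blood arrays above every other array, where 8.43% of all probes had this property. Against ileum, blood was 2.62 ± 0.17 higher for PSMF1 and 1.19 ± 0.19 higher for PSME4.

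**Figure D5:**
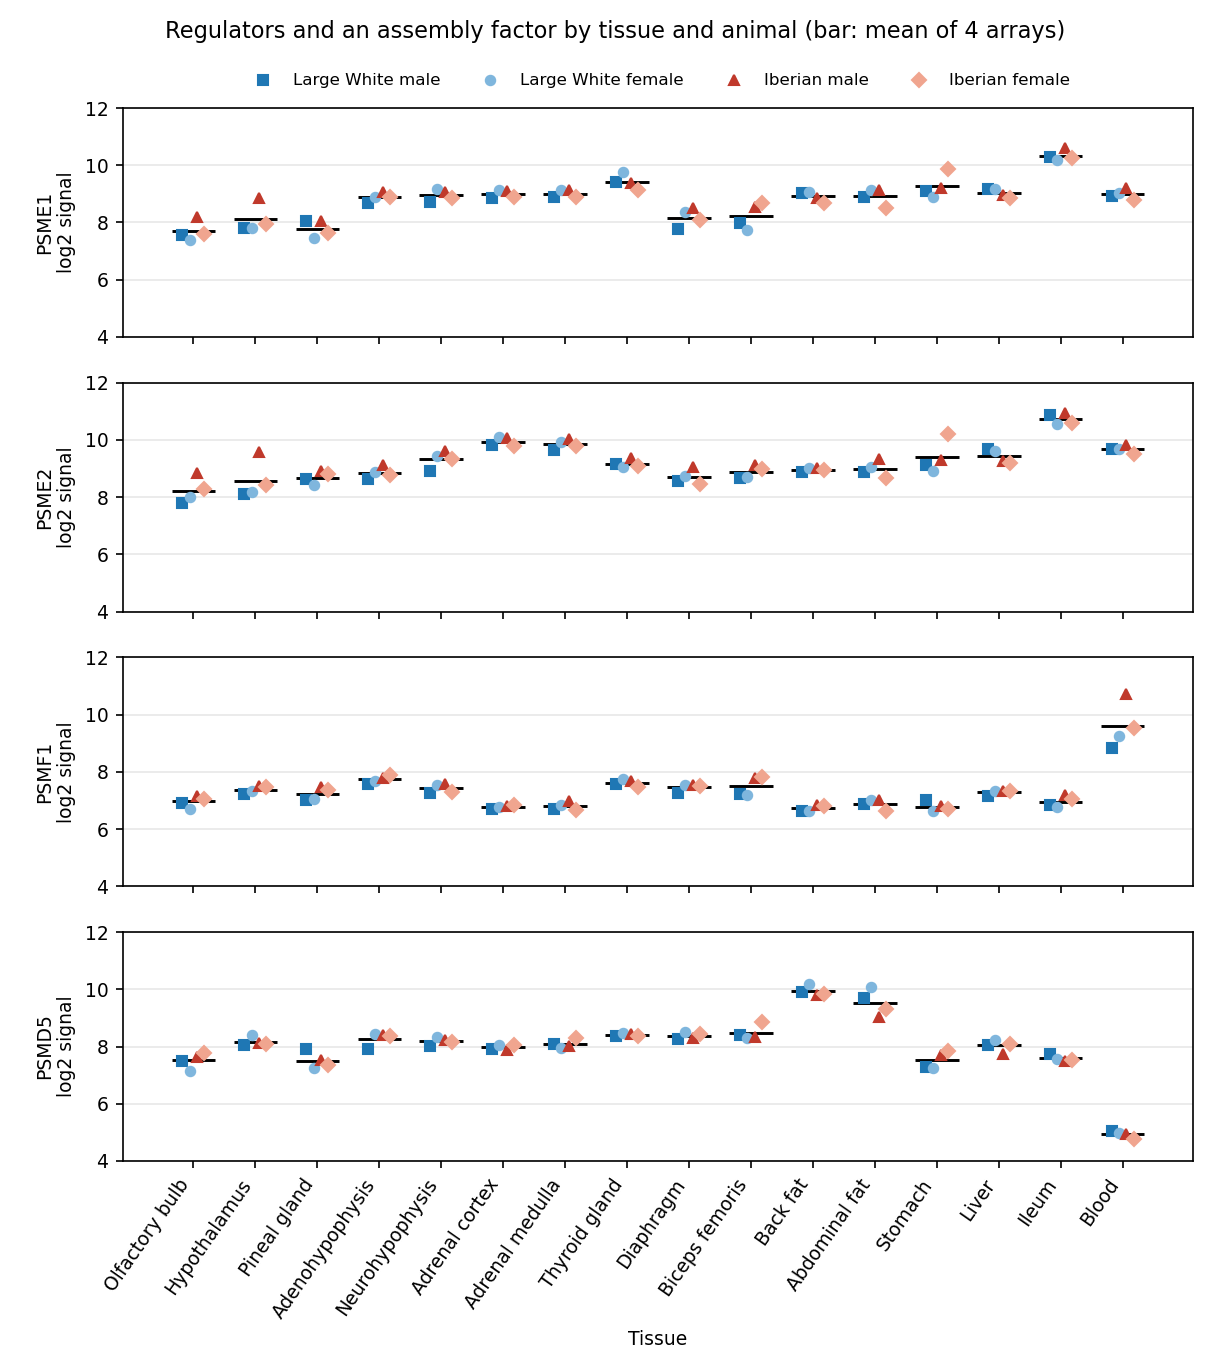
Log2 level of the activator genes PSME1 and PSME2, the inhibitor PSMF1 and the assembly factor PSMD5 in 16 tissues, with 1 point for each of the 4 arrays and a bar for their mean; levels are comparable within a gene only. PSME1 and PSME2 are highest in ileum, PSMF1 in blood, and PSMD5 is highest in the 2 fat tissues and lowest in blood.

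Set directly against ileum, blood had low levels of constitutive genes, of PSMB10 (−1.36) and of PSME1 (−1.33 ± 0.19) and PSME2 (−1.07 ± 0.20), while PSMB8 differed by −0.22 and was not called. In this comparison 33 of 36 constitutive probes were lower in blood and 2 higher, where 32.3% of all probes were lower and 40.5% higher, with medians of −1.16 and 0.14. Among all probes with a mean level of 8 or more 72.2% were lower in blood than in ileum, with a median of −0.83. The largest values were those of PSMD5 (−2.65 ± 0.16), PSMD14 (−2.16 ± 0.20) and PSMA4 (−1.74 ± 0.11), and PSMD4 was 0.52 ± 0.20 higher. Leaving out 1 animal at a time gave 0.25 to 0.67 for PSMD4. After quantile normalization the constitutive median was −0.59.

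Over the 16 tissue means, 436 of 465 pairs of constitutive genes (93.8%) had r above 0, with a median of 0.56. Among pairs of all probes with a mean level of 8 or more 63.3% did, with a median of 0.14, and among pairs of all probes 49.7%. Without blood 398 pairs of constitutive genes (85.6%) had r above 0, with a median of 0.46, against 55% and a median of 0.057 for the probes at 8 or more. The median was 0.77 within the alpha genes and 0.56 within the non-ATPase genes, and PSMB5 and PSMB6 had r = 0.88. These are correlations across tissues that share animals and arrays, given as descriptions. Against the median of the other constitutive genes PSMD4 had r = 0.22 and PSMA6 r = 0.27, and PSMF1 r = −0.66. Without blood these were 0.74, 0.65 and −0.14, so that the low values of PSMD4 and PSMA6 rested on blood. The 10 genes whose means were most like the constitutive median were PSMB6 (r = 0.95), PSMD6, GLRX3, CCDC124, PSMC1, COQ5, PSMD3, TRAP1, PSMA7 and TOX4, of which 5 are proteasome genes. They entered the median themselves.

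Breed was compared over the means of each animal, with 2 pigs per breed. By this test 0 of 46 proteasome probes were called, where 0.0919% of all probes were, and 5 had an unadjusted p under 0.05, where 13.2% of all probes did. With 2 animals against 2 an exact permutation test cannot go below p = 0.333. The largest difference was that of PSMB8, with animal means of 7.01 and 7.05 in the Large White pigs and 7.76 and 7.46 in the Iberian pigs. Large White minus Iberian was −0.58 ± 0.10, with an adjusted p of 0.216 in limma. The Iberian mean was higher in 16 of 16 tissues, and both Iberian arrays lay above both Large White arrays in 10. All 16 tissues came from the same 2 pigs per breed, so these counts are descriptions and add no replicates. PSMB8 was singled out for its large difference, and no share of all probes is given beside its counts. The Iberian male was the highest animal in 13 tissues for PSMB8, in 15 for the interferon response genes and in 12 for the leukocyte markers. Its mean level of the interferon response genes was 7.50, against 6.76 to 6.78 in the other pigs, and the part of this list in the PSMB8 difference was not tested.

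PSMD3, a scaffold subunit of the lid, went the other way. Its animal means were 6.63 and 6.69 in the Large White and 6.31 and 6.37 in the Iberian pigs, a difference of 0.32, with an adjusted p of 0.224. The Large White mean was higher in 14 of 16 tissues. This count too is a description over tissues of the same pigs, without a share of all probes beside it. When the arrays were treated as replicates, which takes 16 tissues of 1 pig as independent, 8 of 46 probes were called for breed, where 12.7% of all probes were.

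Sex gave no proteasome call: 0 of 46 probes passed the test on animal means, where 0.0627% of all probes did, 0 had an unadjusted p under 0.05, where 3.64% of all probes did, and 0 passed with arrays as replicates, where 1.45% did. The lowest adjusted p in limma was 0.9995 on animal means. For the breed by tissue interaction 0 of 46 probes were called, where 2.08% of all probes were, and the lowest adjusted p in limma was 0.0684. Without the pineal gland array of the Large White male 1 probe was called.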

How the data were processed

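RNA of 16 tissues from 4 pigs was hybridised to 64 Affymetrix porcine arrays. The authors deposited 1 table of log2 values after RMA (background correction, quantile normalization and median polish), run with libaffy per the methods, while the labels name GCOS. No source used here gives their versions. The methods state that all arrays went through RMA together. Its quantile step comes before the median polish, so that the deposited values need not share one distribution. The deposited blood arrays had a 90th percentile of 7.81 to 8.04 and all others one of 8.37 to 8.64. The reason was not tested, and levels in blood depend on this difference. Depth has no meaning for arrays, and their number limits the precision. Of 24123 probe sets 188 controls were left out. Of the probes, 10069 had 1 platform symbol, 198 several and 13668 none.

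The log2 values were fitted in limma 3.58.1 (R 4.3.3) with tissue, breed and sex as terms, in which all arrays shared 1 estimate of the spread, with Benjamini-Hochberg adjustment over 23935 probes. Breed and sex were tested on 4 animal means. The same 4 pigs gave every tissue, which pairs the arrays by design; the consensus correlation of arrays of an animal was −0.0063. The scripts were tested on simulated data. Scores, correlations and figures used Python 3.11.15, numpy 2.4.6, pandas 2.3.3, scipy 1.17.1 and matplotlib 3.10.9. The balance used PSMB8 and PSMB10, as PSMB9 had no probe under its symbol.

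The proteasome genes and the other lists (leukocyte, red cell, interferon, peptide loading, ubiquitin, muscle ligase, partner and tissue markers) were chosen with earlier results of these data known. Named genes were the catalytic, activator, inhibitor and chaperone genes, the 3 largest called differences each way in each comparison and the 10 most alike genes. No probe stood under PSMA8, PSMB11, PSMC4, PSMD7, PSMD9, PSMG2 or PSMG4, which were not analysed here. Alternatives were another normalization, threshold, probe choice, breeds apart, an animal block and leaving out animals, arrays or blood, the last chosen after seeing the data.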

Additional observations from a re-analysis of the deposited data

Results flagged for a closer look

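Within groups of 4 arrays, 9 of 144 values stood apart from the other 3 by Dixon's test; chance alone gives about 1 in 20 groups. In the Large White male PSMB5 was 9.19 in pineal gland, where the others lay between 8.59 and 8.60, and PSMB7 on the same array was 9.38, against 8.93 to 8.96. PSMB5 was 9.60 in the Biceps femoris of the Iberian female, against 9.36 to 9.39. The Large White female had PSMB6 at 9.01 in thyroid gland (others 8.85 to 8.88), PSMB7 at 9.62 in hypothalamus (others 9.47 to 9.48) and PSMB8 at 9.42 in ileum (others 9.85 to 9.91). PSME1 was 8.84 in the hypothalamus of the Iberian male, against 7.81 to 7.95. The median deviation of the constitutive 26S probes was −0.19 in the adenohypophysis of the Large White male, against −0.10 to −0.08, and the balance of the immunoproteasome genes was 0.37 in the liver of the Iberian male, against 0.07 to 0.09. Causes were not tested.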

How the results depend on the processing

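Of 2344 values of 151 results under 20 alternatives, 2150 kept their direction and call or moved by less than the set margin. The animal as a replicate block, which gives the paired fit, changed no call and left PSMB8 in ileum at 2.60. Quantile normalization moved the constitutive median to 0.25 in adrenal gland, −0.37 in thyroid, −0.43 in blood and −0.59 in blood against ileum, with 5 probes lower in adrenal gland and 7 higher in blood, and 1 probe higher in each of thyroid, liver and diaphragm against Biceps femoris. Without blood the median was −0.22 in brain, 0.26 in adrenal gland, −0.35 in thyroid, 0.33 in muscle, 0.12 in ileum and −0.023, a change of sign, in fat, with 5 probes lower in adrenal gland, 7 lower in ileum, 1 higher in liver and 0 higher in thyroid. A minimum log2 difference of 0.5 left 1 higher and 1 lower in brain, 7 and 0 in adrenal gland, 0 and 6 in thyroid, 14 and 1 in muscle, 4 and 1 in fat, 1 and 8 in stomach, 1 and 2 in liver, 7 and 0 in ileum, 1 higher in blood, 1 higher in blood against ileum, 0 lower in ileum against stomach and 0 lower in diaphragm, and PSMB10 lost its calls in blood (0.44), muscle (−0.45) and thyroid (−0.46).

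Within the Large White pigs the fat median was −0.047 and PSMB3 in stomach −0.084, both changes of sign. PSMB10 was 0.31 in blood and −0.30 in thyroid, not called, and 0.69 in liver, called. There, 7 probes were higher in fat, 7 in liver, 1 in thyroid, 1 in stomach, 0 in blood against ileum and 0 in diaphragm, and 3 were lower in liver, 1 in muscle, and 0 each in adrenal gland, ileum against stomach and diaphragm. Within the Iberian pigs PSMB10 lost its calls in blood (0.57), muscle (−0.41) and thyroid (−0.62). The median was 0.36 in muscle and 0.34 in ileum against stomach, where 10 probes were higher. There, 2 were higher in liver, 1 in thyroid, 1 in blood against ileum and 1 in diaphragm, and 13 were lower in thyroid, 5 in stomach, 3 in fat and 1 in adrenal gland. These fits have 2 arrays a tissue. With 1 probe per gene, 5 were higher in brain, 2 lower in ileum and 1 higher in blood against ileum. On a natural log of the values 1 was lower in diaphragm. With arrays as replicates, 8 probes were called for breed.

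Without the Biceps femoris array of the Iberian female 0 probes were higher and 1 lower in diaphragm, 1 was lower in muscle, and PSMD12 changed sign, at −0.016. Without the stomach array of that pig 1 probe was higher in stomach and PSMB10 in liver, at 0.35, was called. Without the pineal gland array named in the report 1 probe was called for the interaction. Leaving out 1 animal at a time gave 1 to 2 probes higher in blood against ileum, 0 to 3 higher and 0 to 3 lower in diaphragm, 14 to 23 higher in ileum against stomach, 1 to 8 higher and 5 to 9 lower in liver, 1 to 2 higher and 12 to 22 lower in stomach, 1 to 2 higher in thyroid, 1 to 3 lower in adrenal gland and 1 to 2 lower in muscle. PSMB10 ranged from 0.32 to 0.50 in blood, 0.16 to 0.49 in liver and −0.51 to −0.38 in thyroid, PSMD12 from −0.055 to 1.14 in diaphragm, and the balance of back fat from −0.21 to −0.016. Causes of these changes were not tested. Array signal limits dim probes, and all 46 proteasome probes lay above the median level.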
